A study of Mus musculus with 4 samples.

Results

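Lpin1, Zbtb16, Fkbp5, St3gal5 and Dusp1 are 5 genes whose liver mRNA was higher early in the dark phase than early in the light phase in mice with adrenal glands. They were chosen by gene symbol, from results on these same arrays, and their values are therefore given as a description with no test. They are 5 of the 8251 genes named on the array and are represented by 6 of its 12422 probe sets: Zbtb16 has 2 and each of the other genes 1. For Lpin1, Zbtb16, Fkbp5 and St3gal5 the night level was over 2-fold lower without adrenal glands. For Dusp1 it was 1.31-fold lower, and "adrenal-dependent" does not describe its night level as it does that of the other 4 genes. By the share of the sham day-night log2 difference seen without adrenal glands, St3gal5 kept more (52.9%) than Dusp1 (42.0%).

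Liver RNA of male C57BL/6 mice was measured on 4 Affymetrix MG_U74Av2 arrays, 1 array for each group. The ADX ZT14 and ADX ZT2 groups had both adrenal glands removed under ketamine (91 mg/kg) and xylazine (3.6 mg/kg) anaesthesia and drank 0.9% NaCl. The sham ZT14 and sham ZT2 groups were sham-operated and drank water, and all groups ate standard chow freely. Zeitgeber time (ZT) counts hours from lights on, so ZT2 is early light and ZT14 early dark. The labels do not give the anaesthesia of the sham mice. Adrenal removal, the drink and any difference in anaesthesia cannot be told apart in these groups, and age and the number of mice behind an array are not given in the labels. With 1 array per group no difference has a replicate check and no p-value is given for any difference. In bulk liver RNA, fewer cells of a type and less RNA per cell cannot be told apart.

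The adrenal cortex makes glucocorticoids, corticosterone in the mouse, and its output follows the day, with a peak near the onset of darkness in these night-active animals. The hormone binds the glucocorticoid receptor, which is held ready by chaperones in the cytoplasm, enters the nucleus and binds response elements in DNA. In liver the receptor is known for raising genes of glucose output, amino acid breakdown and lipid handling, and also genes that restrain its own signal.

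The members have different tasks. Lpin1 encodes lipin-1, a phosphatidate phosphatase of triglyceride synthesis that also acts as a transcriptional coactivator in mouse liver. Zbtb16 encodes the transcription factor PLZF, a zinc finger protein with a BTB domain. Fkbp5 encodes a co-chaperone that lowers hormone binding by the glucocorticoid receptor. St3gal5 encodes the sialyltransferase that makes the first ganglioside of its pathway from lactosylceramide. Dusp1 encodes a phosphatase that inactivates MAP kinases.

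The sequences at the gene starts are shown because all members were higher at ZT14 than at ZT2 in sham livers and the receptor acts through short DNA elements. RefSeq promoter windows of build GRCm38.p6, from 250 bases before to 50 bases after the gene start, were found for 4 of the 5 genes, all but Zbtb16. They are written 5′ to 3′ on the gene's strand, with matches to any of the 5 motifs searched in capitals. The match in capitals is a half-site in Lpin1, an E-box in Fkbp5, and a cyclic AMP response element followed by an E-box in Dusp1, while St3gal5 has none.
Lpin1, chr12:16610917-16611216, minus strand: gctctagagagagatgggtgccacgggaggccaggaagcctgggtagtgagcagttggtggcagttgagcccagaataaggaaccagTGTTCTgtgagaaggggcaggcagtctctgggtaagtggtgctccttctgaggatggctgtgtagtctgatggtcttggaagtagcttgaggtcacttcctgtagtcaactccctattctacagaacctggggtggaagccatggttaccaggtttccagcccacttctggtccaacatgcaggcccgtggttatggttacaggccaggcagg
Fkbp5, chr17:28486100-28486399, minus strand: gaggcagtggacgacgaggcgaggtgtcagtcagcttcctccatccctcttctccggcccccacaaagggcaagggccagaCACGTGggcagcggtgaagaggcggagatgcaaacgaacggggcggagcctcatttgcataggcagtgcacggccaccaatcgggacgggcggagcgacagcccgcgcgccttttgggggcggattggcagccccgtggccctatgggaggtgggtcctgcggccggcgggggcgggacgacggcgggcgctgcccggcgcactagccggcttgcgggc
St3gal5, chr6:72097358-72097657, plus strand: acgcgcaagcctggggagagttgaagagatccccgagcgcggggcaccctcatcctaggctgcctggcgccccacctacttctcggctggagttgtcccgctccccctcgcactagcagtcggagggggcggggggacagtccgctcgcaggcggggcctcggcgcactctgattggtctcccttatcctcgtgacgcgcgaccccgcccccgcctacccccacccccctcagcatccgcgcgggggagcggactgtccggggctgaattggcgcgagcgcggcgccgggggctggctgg
Dusp1, chr17:26508423-26508722, minus strand: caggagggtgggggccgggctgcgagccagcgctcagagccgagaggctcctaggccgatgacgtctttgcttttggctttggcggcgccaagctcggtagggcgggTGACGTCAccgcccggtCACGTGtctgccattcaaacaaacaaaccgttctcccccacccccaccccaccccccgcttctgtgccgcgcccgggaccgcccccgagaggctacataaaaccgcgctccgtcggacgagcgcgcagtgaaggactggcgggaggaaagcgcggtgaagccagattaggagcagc

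The motifs were searched on both strands. The full palindromic glucocorticoid response element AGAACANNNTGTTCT, an inverted repeat of its half-site, was in none of the 4 windows and in 0.00913% of 32851 promoter windows of the same length. With so rare a motif its absence from 4 windows says little, and sequence outside these windows was not searched. Its half-site TGTTCT was in 19.0% of all windows, and among the 4 windows searched it lay in that of Lpin1 alone, 163 to 158 bases before the start. The E-box CACGTG, a site of clock activators, was in 7.15% of windows, and it lay 169 to 164 bases before the start of Fkbp5 and 126 to 121 bases before that of Dusp1. The cyclic AMP response element TGACGTCA was in 1.79% of windows and lay 143 to 136 bases before the start of Dusp1. The D-box TTATGNAA, in 3.38% of windows, was in none of the 4. The half-site lies within the palindrome, and no other motifs of this set contain each other. The Fkbp5, St3gal5 and Dusp1 windows were rich in G and C (70.7%, 72.7% and 67.0%), against 55.3% for Lpin1 and a median of 52.7% over all windows. A match in these windows is a run of letters and was not tested as a binding site.

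All values below are Affymetrix Signals, an intensity per probe set, after scaling of each array to a common trimmed mean. They can be compared for 1 probe set across arrays, not between probe sets. The main probe sets of the 5 genes were called Present, meaning detected, in all 20 of their values, with detection p-values between 0.000219 and 0.0219. Across all probe sets, Present calls covered 44.4% to 47.0% per array, and the scaling factors lay between 0.925 and 1.07. Of 8 hepatocyte markers 7 were on the arrays, and these were Present on all 4 with a summed signal of 27587 to 28592. The summed signal of markers was lowest on the sham ZT14 array for immune cells (572 there and 668 to 701 elsewhere, 5 or 6 of 7 markers Present), for red cells (1052 there and 1468 to 1960 elsewhere, both markers Present) and for stellate cells (63.2 there and 70.7 to 101 elsewhere, 1 to 3 of 4 markers Present). Adipose sums (35.2 there and 39.2 to 55.2 elsewhere, 1 of 3 Present) and exocrine pancreas sums (77.8 there and 95.9 to 143 elsewhere, 1 of 2 Present) were also lowest on that array. Endothelial sums were 110 to 129 with 3 of 4 markers Present. Bile duct and skeletal muscle markers had no Present call on any array. Kidney marker sums were 53.7 on the ADX ZT14 array and 9.1 to 16.5 elsewhere, with at most 1 of 4 Present. The part of these markers in the members' values was not tested.

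Lpin1 had a signal of 44.3 in ADX and 324 in sham livers at ZT14, and of 28.5 in ADX and 59.9 in sham livers at ZT2. The sham ZT14 array alone was high, and both ADX arrays lay below both sham arrays. Lpin1 was 7.31-fold lower in ADX at ZT14 (log2 difference -2.87) and 2.10-fold lower at ZT2 (-1.07). Between the times, it was 1.56-fold higher at ZT14 than at ZT2 in ADX livers and 5.41-fold higher in sham livers. On the log2 scale the ADX day-night difference, 0.64, was 26.2% of the 2.44 in sham. The ADX night level stayed 1.35-fold under the sham day level.

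Zbtb16, by its detected probe set, had signals of 14.5 in ADX and 114 in sham livers at ZT14, and of 14.2 in ADX and 22.7 in sham livers at ZT2. As for Lpin1, both ADX arrays lay below both sham arrays, and here they were at nearly 1 level. Both ADX signals were called Present but lay near the median signal of all probe sets (14.2 units). The part of background in this level was not tested. The gene was 7.87-fold lower in ADX at ZT14 (-2.98) and 1.60-fold lower at ZT2 (-0.68). The ADX pair differed by 0.03 between the times, a value that was -0.11 under quantile normalization and 0 with unscaled signals, and the sham pair by 2.33, or 5.04-fold. The ADX night level was 1.56-fold under the sham day level.

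The other probe set of Zbtb16 carried no such signal. Both were designed on the same sequence of 367 bases, a 5′ end read of a cDNA clone. The second was called Absent on all 4 arrays, with signals of 8.65 in ADX and 3.42 in sham at ZT14, and 2.81 in ADX and 2.50 in sham at ZT2. Its detection p-values were between 0.267 and 0.697, so it gives no fold. The detected probe set carries the suffix _g_at, which Affymetrix uses where probes can match a group of similar sequences. The Zbtb16 values thus rest on 1 of 2 probe sets, and averaging both on the log2 scale gave -0.92 for ADX minus sham at ZT14, short of 2-fold.

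Fkbp5 had signals of 60.5 in ADX and 161 in sham livers at ZT14, against 40.1 in ADX and 45.8 in sham livers at ZT2. The sham ZT14 array was high and the other 3 lay within 1.51-fold of each other. Fkbp5 was 2.66-fold lower in ADX at ZT14 (-1.41) and 1.14-fold lower at ZT2 (-0.19). ZT14 was 1.51-fold above ZT2 in ADX (0.59) and 3.51-fold above it in sham (1.81), so that 32.7% of the sham log2 difference was seen in ADX. The ADX night level was 1.32-fold above the sham day level, where that of Lpin1 was below it.

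St3gal5 had signals of 144 in ADX and 391 in sham livers at ZT14, and of 60.9 in ADX and 76.6 in sham livers at ZT2. Both ZT14 arrays were above both ZT2 arrays, as for Fkbp5 and unlike Lpin1 and Zbtb16. St3gal5 was 2.71-fold lower in ADX at ZT14 (-1.44) and 1.26-fold lower at ZT2 (-0.33). It was 2.37-fold higher at ZT14 than at ZT2 in ADX livers (1.24) and 5.10-fold higher in sham livers (2.35). It was the single member past 2-fold between the times in ADX, and 52.9% of its sham log2 difference was seen there. Its probe set, with the suffix _s_at, can match more than 1 transcript.

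Dusp1 had signals of 127 in ADX and 166 in sham livers at ZT14, and of 80.2 in ADX and 55.3 in sham livers at ZT2. The 2 ZT14 arrays were above the 2 ZT2 arrays, and the order of the operations turned with the time of day. Dusp1 was 1.31-fold lower in ADX at ZT14 (-0.38) and 1.45-fold higher in ADX at ZT2 (0.54). Both differences are short of 2-fold. Its day-night difference was 1.59-fold in ADX (0.67) and 3.0-fold in sham (1.58), so 42.0% of the sham log2 difference was seen in ADX. The ADX night level was 2.30-fold above the sham day level.

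**Figure D1:**
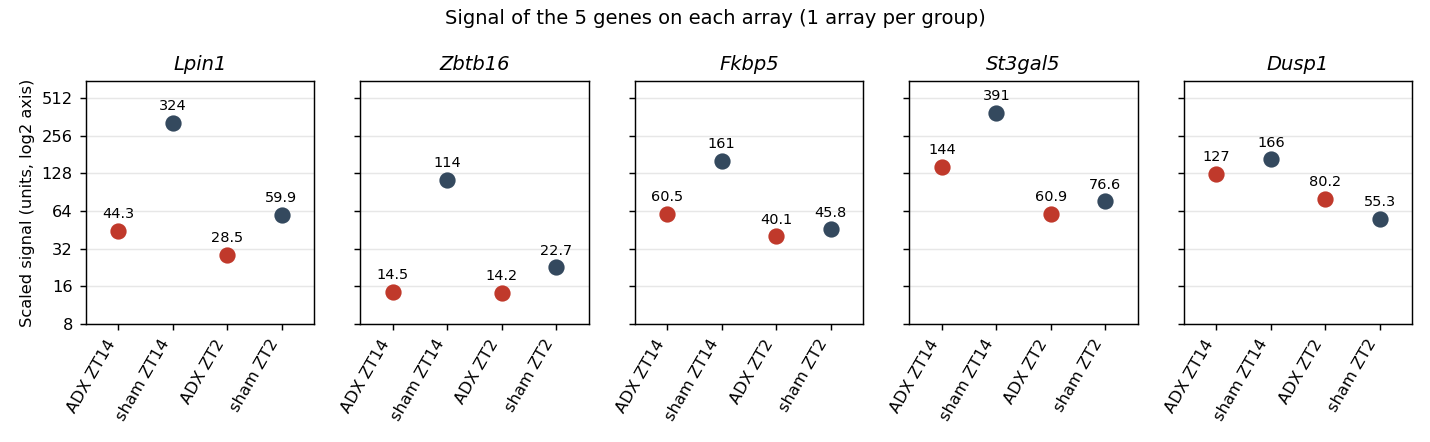
Scaled signal (log2 axis, Affymetrix units) of the main probe set of each gene on the ADX (red) and sham (dark) arrays at ZT14 and ZT2, 1 point per array. The sham ZT14 point is the highest in every panel (324 for Lpin1, 114 for Zbtb16, 161 for Fkbp5, 391 for St3gal5, 166 for Dusp1), and the lowest is ADX ZT2 except for Dusp1, where it is sham ZT2.

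The 4 comparisons can be read against the whole array. A call of higher or lower needed a difference of 2-fold or more, with a Present call on the brighter array. At ZT14, 4 of the 5 genes were called lower in ADX and none higher, where 1.62% of 5996 probe sets were called lower and 2.45% higher. Zbtb16 had the lowest and Lpin1 the second lowest log2 difference of those 5996, St3gal5 was at rank 27, Fkbp5 at rank 28 and Dusp1 at rank 765. At ZT2 Lpin1 alone of the 5 was called lower, at rank 51, where 0.832% of 6247 probe sets were lower and 1.73% higher. Between the times in ADX, 1 of the 5 genes, St3gal5, was called higher at ZT14, where 2.89% of 6125 probe sets were higher and 2.45% lower. Between the times in sham all 5 were called higher, where 3.42% of 6166 probe sets were higher and 2.53% lower, with ranks from 11 (Lpin1) to 55 (Dusp1). The genes were chosen on these arrays, so nothing is read from their counts or ranks. The ZT14 comparison of operations and the sham comparison of times share the sham ZT14 array, and a high value on that array enters both.

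The split of all called probe sets moved with the scaling of the arrays. At ZT14, 147 were higher and 97 lower in ADX, against 118 and 120 under quantile normalization. At ZT2 there were 108 higher and 52 lower, against 68 and 80. The day-night split was 177 higher and 150 lower in ADX, against 148 and 201, and 211 higher and 156 lower in sham, against 161 and 193. The members moved little: over quantile normalization, unscaled signals and 2 other floors, the ZT14 difference between operations ran from -3.0 to -2.87 for Lpin1, -3.10 to -2.98 for Zbtb16, -1.54 to -1.39 for Fkbp5, -1.57 to -1.44 for St3gal5 and -0.51 to -0.38 for Dusp1. Across probe sets Present on both arrays, the log2 difference of the operations had a robust SD of 0.31 at ZT14 and 0.25 at ZT2. This is a spread across probe sets and not a replicate error. The ZT14 difference of Dusp1 is close to it in size, as are the ZT2 differences of Fkbp5 and St3gal5.

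**Figure D2:**
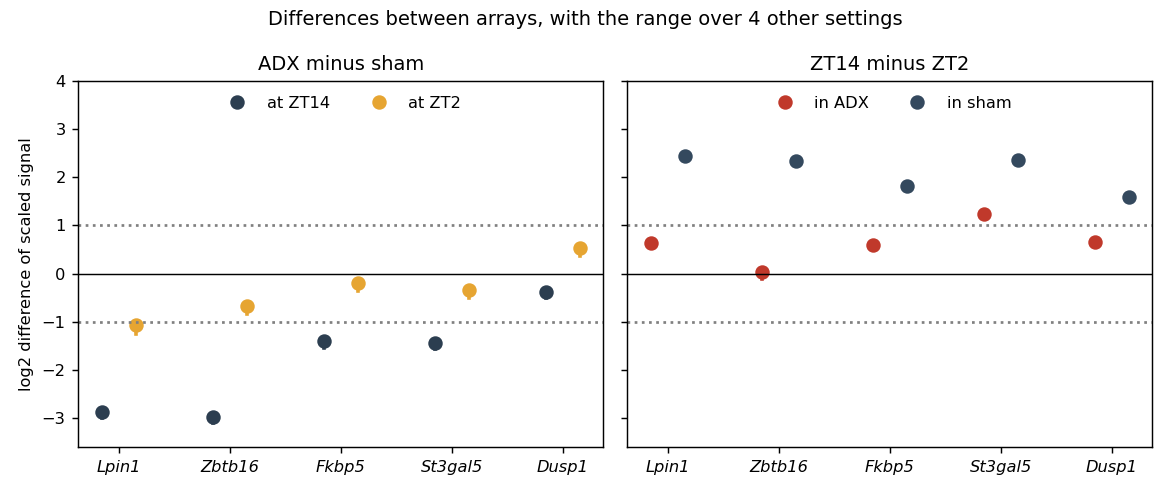
Log2 differences of scaled signal for each gene, ADX minus sham at ZT14 and ZT2 (left) and ZT14 minus ZT2 in ADX and in sham (right). Points are the reported values, vertical lines the range over 4 other settings, and dotted lines mark 2-fold; at ZT14 the operations differ by -2.87 in Lpin1 and -0.38 in Dusp1.

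The difference between the day-night differences, ADX minus sham, was -2.30 for Zbtb16, -1.80 for Lpin1, -1.22 for Fkbp5, -1.11 for St3gal5 and -0.92 for Dusp1. All 5 were below 0, and the interaction cannot be tested with 1 array per group. Clock genes on the same arrays had differences of either sign. Over the 10 of them called in both pairs, ADX minus sham ran from -1.56 (Usp2) to 0.94 (Wee1), and over the 5 of these Present on all 4 arrays from -0.41 (Bhlhe40) to 0.80 (Nr1d2). The 5 genes were chosen on these arrays, and the 10 clock genes had to be called in ADX as well as in sham. These choices bear on the signs, so nothing is read from the contrast. The 10 include Arntl and Nfil3, which were lower at ZT14 in both pairs. For such genes a value above 0 is a smaller day-night difference in ADX. Arntl gave 0.87, from -2.91 in ADX and -3.78 in sham. Its ADX ZT14 array was Absent, so the size in ADX is a lower bound and a smaller difference there is not shown. Usp2, a clock-controlled deubiquitinase gene, differed between the times by 2.65 in ADX and 4.21 in sham (2.97 in ADX and 4.75 in sham by its other probe set). Both ZT2 arrays were Absent for Usp2, so these are lower bounds. The difference between them, -1.56, is thus bounded in neither direction and cannot be ranked against the values of the 5 genes. The same holds for Wee1 (0.94), whose ZT2 arrays were Absent in ADX and Marginal in sham, and for Dbp (0.24), with both ZT2 arrays Absent. Noct, the gene of nocturnin, differed between the times by 4.06 in ADX and 3.96 in sham by its main probe set. Its other probe sets gave -0.24 in ADX and 0.00 in sham, and 2.66 in ADX and 1.80 in sham with both ZT2 arrays Absent. Nfil3 differed by -1.44 in ADX and -1.45 in sham by its main probe set. By its other probe set, Absent on both ZT14 arrays, it differed by -2.84 in ADX and -0.98 in sham. Bhlhe40, a repressor of the clock, differed by 2.25 in ADX and 2.67 in sham. Tef, a clock output transcription factor, differed by 3.23 in ADX and 2.57 in sham. Of 17 measured clock genes, 8 were called higher and 3 lower at ZT14 in ADX, and 8 higher and 2 lower in sham. Among the 5007 genes measured, 2.54% were called higher and 2.10% lower in ADX, and 3% higher and 2.20% lower in sham. Between the operations, 1 clock gene of 17 was called at ZT14 (Per3, lower) and none at ZT2. With the floor at the median signal Per3 lost this call and its day-night call in ADX, and Wee1 lost both day-night calls, that in sham also under quantile normalization.

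**Figure D3:**
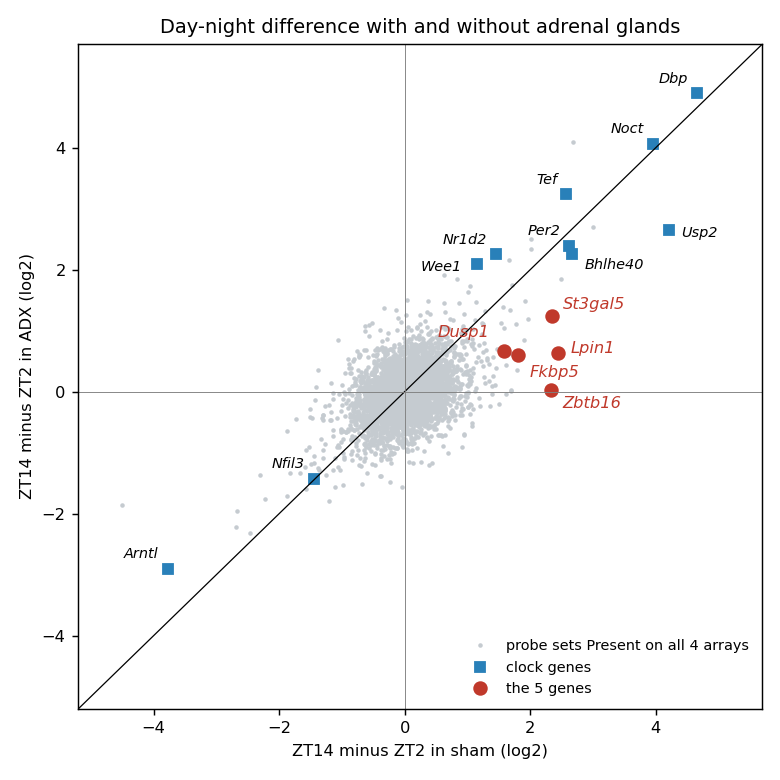
ZT14 minus ZT2 in sham (x axis) and in ADX (y axis), both log2, for probe sets Present on all 4 arrays (grey), the 10 clock genes called in both pairs (squares, some not Present on every array) and the 5 genes (red circles), with the line of equal differences. Zbtb16 lies at 2.33 in sham and 0.03 in ADX and St3gal5 at 2.35 and 1.24, all 5 below the line, as is Usp2 at 4.21 in sham and 2.65 in ADX, while Noct lies near it at 3.96 in sham and 4.06 in ADX. The 5 genes and the 10 clock genes were picked by values on these arrays, so nothing is read from their contrast.

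Other genes known to respond to glucocorticoids did not share one pattern. Their list does not state which of them the hormone raises or lowers, so counts and medians can mix both directions. Of 39 such genes listed, 32 were measured, meaning Present on at least 1 array. At ZT14, 3 were called higher in ADX, none lower and 29 neither, with a median log2 difference of 0.01 against 0.03 over all genes. The background was 1.86% of genes higher and 1.28% lower. The 3 were the metallothionein Mt1 (861 in ADX and 307 in sham), the corticosteroid-binding globulin gene Serpina6 (2324 in ADX and 1119 in sham) and the urea cycle gene Ass1 (75.4 in ADX and 31.6 in sham). Serpina6 lost the call with unscaled signals (0.93), and its second probe set gave 0.45, short of 2-fold. At ZT2, 2 were called lower in ADX, 1 higher and 29 neither, with a median of -0.08 against 0.01, where 0.739% of genes were lower and 1.42% higher.

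At ZT2 the lower ones were Igfbp1, an insulin-like growth factor binding protein gene (125 in ADX and 547 in sham), and Pck1, an enzyme gene of glucose synthesis (138 in ADX and 326 in sham). The higher one was the cell cycle inhibitor gene Cdkn1a (34.3 in ADX and 15.9 in sham), whose call was lost with unscaled signals, where G6pc, a glucose output gene, was called lower (-1.16). Igfbp1 and Pck1 were called between operations at ZT2 and not at ZT14, where their log2 differences were 0.52 and -0.22, while Zbtb16, Fkbp5 and St3gal5 were called at ZT14 and not at ZT2. The difference between these times was not tested. Errfi1, Per1 and Nr3c1 were not called by their main probe sets and are named after their values were seen. Errfi1, a feedback inhibitor of the epidermal growth factor receptor, was lower in ADX at both times by its main probe set (-0.63 at ZT14 and -0.66 at ZT2). Its second probe set gave -1.19 and -0.79, with 352 in ADX and 805 in sham at ZT14.

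Between the times, 5 of the 32 were called higher at ZT14 and 3 lower in ADX, with a median of 0.12 against 0.01 over all genes. In sham 3 were called higher and 4 lower, with a median of 0.18 against a median of -0.00 over all genes. Mt1 and Mt2 were called higher at ZT14 in both pairs, by 4.10 and 2.70 in ADX and by 2.68 and 3.0 in sham. Pck1, Serpina6 and Ass1 were called higher in ADX, and Rgs16, a regulator of G protein signalling, in sham (1.30). The second probe set of Rgs16 gave 0.38 in sham, short of 2-fold, with its sham ZT2 array Absent. Igfbp1 was lower in both pairs, Klf9 and Bcl6 in ADX, and G6pc, Pdk4 and Irs2 in sham. Pdk4 and Irs2 lost the call with the floor at the median signal, Cdkn1a was also called lower at ZT14 in ADX under quantile normalization, and the second probe set of Klf9 gave -0.28 in ADX. Per1, a clock gene with a known glucocorticoid response, was detected on the sham ZT14 array alone, with 23.3 in ADX and 21.4 in sham at ZT14 and 12.9 in ADX and 15.5 in sham at ZT2.

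**Figure D4:**
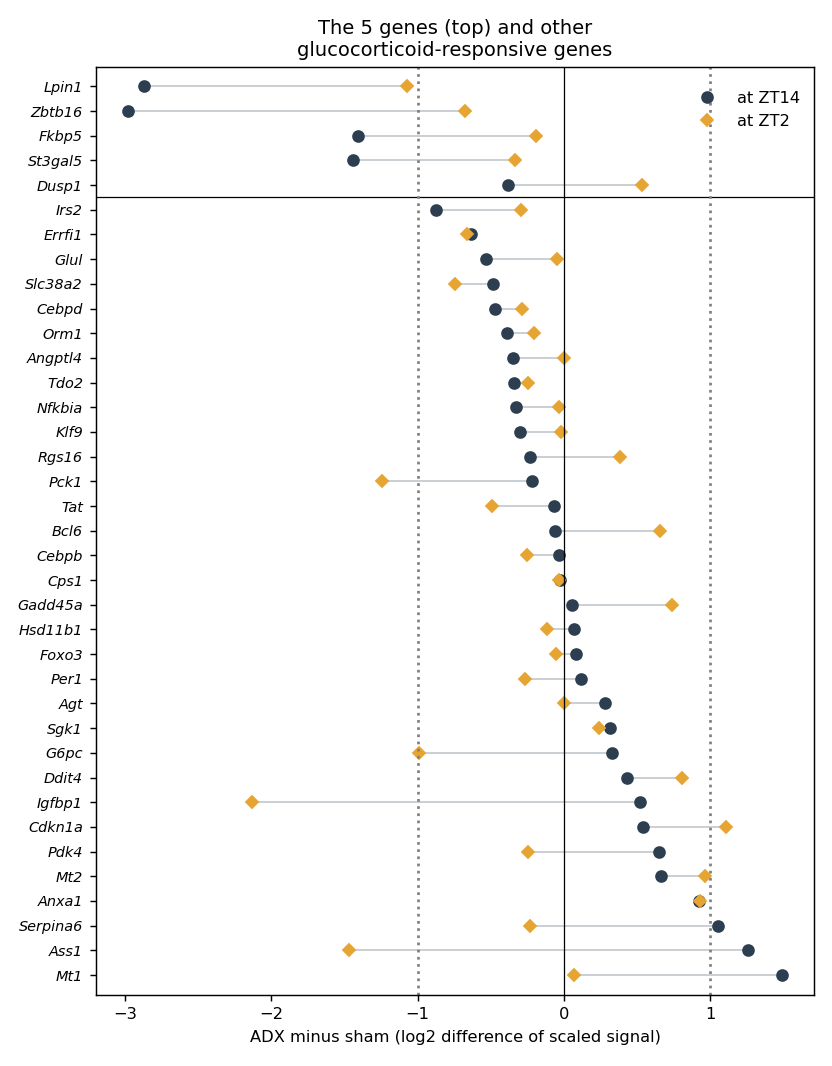
ADX minus sham log2 difference at ZT14 (circles) and at ZT2 (diamonds) for the 5 genes (top) and 32 other glucocorticoid-responsive genes, some of them not Present on every array, with dotted lines at 2-fold. Lpin1 and Zbtb16 lie at -2.87 and -2.98 at ZT14, and at that time the genes of the lower block with a Present brighter array run from -0.63 (Errfi1) to 1.49 (Mt1).

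Lpin2, the paralogue of Lpin1, had signals of 58.4 in ADX and 82.8 in sham at ZT14, and of 53.8 in ADX and 85.4 in sham at ZT2. It was lower in ADX at both times (-0.50 and -0.67), short of 2-fold, and differed between the times by 0.12 in ADX and -0.05 in sham. Of 26 listed genes of glycerolipid synthesis and storage 17 were measured, and none was called between operations at either time. Their medians were 0.04 at ZT14 and -0.02 at ZT2. Of all genes, only 0.739% to 3% were called in each direction of a comparison, so few or no calls in a short list is near the background. Between the times, Chka, a choline kinase of phospholipid synthesis, was called lower at ZT14 in ADX (-1.34) and in sham (-1.82). In sham alone Plin2, which coats lipid droplets, was called lower (-1.08) and Pnpla2, a triglyceride lipase, higher (1.08, and not with unscaled signals).

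Fkbp5 belongs with the chaperones that hold the glucocorticoid receptor. Of 26 listed genes of that complex and of the same binding protein family, 20 were measured and none was called in any of the 4 comparisons, with medians between -0.01 and 0.07. This is near the background, where 0.739% to 3% of all genes were called in each direction of a comparison. Fkbp4, the family member that favours receptor signalling, had signals of 376 in ADX and 365 in sham at ZT14, and 356 in ADX and 313 in sham at ZT2. The receptor gene Nr3c1 had signals of 14.2 in ADX and 21.1 in sham at ZT14 (-0.57), and 15.5 in ADX and 17.4 in sham at ZT2 (-0.16). With quantile normalization or unscaled signals, 1 gene of this list, Fkbp7, was called lower in ADX at ZT2 (8.13 in ADX and 16.0 in sham).

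For St3gal5, 15 of 26 listed genes of ganglioside and sialic acid metabolism were measured and none was called in any of the 4 comparisons. Their median was 0.17 at ZT14 and 0.05 at ZT2 between operations, and -0.07 in ADX and -0.12 in sham between times. The absence of calls is near the background of 0.739% to 3% of all genes in each direction of a comparison. Of the other sialyltransferases, St3gal4 had 165 in ADX and 215 in sham at ZT14 and 173 in ADX and 117 in sham at ZT2. St3gal1 had 88.4 in ADX and 68.1 in sham at ZT14, and 138 in ADX and 128 in sham at ZT2, so its night arrays were the lower ones.

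For Zbtb16, 8 of 21 listed BTB zinc finger factors and corepressors were measured. Bcl6b was called higher in ADX at ZT14 and higher at ZT14 in ADX, but was Present on the ADX ZT14 array alone (13.9) and lost both calls with a higher floor. Across all genes, 0.739% to 3% were called in each direction of a comparison. Zbtb20, a factor known in mouse liver, had 178 in ADX and 184 in sham at ZT14, and 143 in ADX and 116 in sham at ZT2.

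For Dusp1, 17 of 33 listed MAP kinase phosphatases, MAP kinases and immediate early genes were measured. Between operations 1 was called lower in ADX at ZT14 (Myc, dim at 4.80 in ADX and 11.4 in sham) and 2 at ZT2 (Myc and Egr1), those of Myc not with the floor at the median signal, with medians of 0.04 and -0.19. Egr1, an immediate early transcription factor gene, had 34.2 in ADX and 76.3 in sham at ZT2, while Dusp1 was higher in ADX at that time. Between the times Egr1 was called lower at ZT14 in both pairs and no other gene of the list was called. The share of all genes called was 0.739% to 3% in each direction of a comparison. The phosphatase gene Dusp6 had 234 in ADX and 137 in sham at ZT14, and 143 in ADX and 113 in sham at ZT2, so it was higher in ADX at both times, short of 2-fold.

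The genes whose pattern over the 4 arrays was most like the mean of the 5 were found by the root mean square difference of centred log2 signals, among 4340 genes Present on the sham ZT14 array. The members themselves lay between 0.18 (Fkbp5) and 0.61 (Dusp1) from their mean. The 6 most like were Gdap10 (0.13), Slc37a4 (0.32), Tff3 (0.34), Thrsp (0.34), Hoxb3 (0.35) and Styx (0.35). Slc37a4, the glucose-6-phosphate transporter, had 439 in ADX and 879 in sham at ZT14, and 270 in ADX and 317 in sham at ZT2. Thrsp, a gene tied to lipogenesis, had 1662 in ADX and 2998 in sham at ZT14, and 760 in ADX and 1030 in sham at ZT2. These 2 were Present on all arrays, and the other 4 had signals of at most 34.0 and at least 1 Absent call. Genes compared had to be Present on the sham ZT14 array, where the members were highest. Tff3 and Hoxb3 were Present on that array alone, and the sham ZT2 signals of Gdap10 and Hoxb3 were raised to the floor. The likeness of these dim genes is thus partly set by the filter and the floor. By Pearson correlation over the 4 arrays none of these 6 was among the 6 most like.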

How the data were processed

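Liver RNA was measured on 4 arrays, 1 per group, with operation and time read from the titles. Per the file headers, the deposited tables hold for every probe set an absolute Affymetrix Signal (a linear intensity), a detection call (P, M or A) and a detection p-value. No source used here names the software or the scaling target. The deposited value table holds the same intensities (largest difference 0). Per the run sheets, all arrays shared 1 hybridisation day and 1 station, and each array its own fluidics module (4 in all), so module and group cannot be told apart.

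Each array was scaled to a common trimmed mean (2% off each end). Before log2, dim signals were raised to 3.91 units, the median signal of Absent calls, which exceeds the lowest Present one (3.05). Then 66 control probe sets were dropped. Genes were named from the platform annotation where it gave 1 symbol, and a gene was represented by its probe set of highest mean signal. A call needed a difference of at least 2-fold and a Present brighter array, with no p-value. The number of arrays limits the precision. Members and gene lists were chosen with earlier results of these data known. Named genes were the members, list genes that were called or belong to a member's family, and the 6 genes most like the members, and Per1, Errfi1 and Nr3c1 were named outside this rule, after their values were seen. Alternatives covered scaling, floor, detection filter, fold, averaging of probe sets and the measure of likeness. The calling step was tested on simulated data. Python 3.11.15, NumPy 2.4.6, pandas 2.3.3 and matplotlib 3.10.9 were used.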

Additional observations from a re-analysis of the deposited data

Results flagged for a closer look

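Dusp1 differed between the operations in opposite directions at the 2 times, with a log2 difference (ADX minus sham) of -0.38 at ZT14 and 0.54 at ZT2. Styx, among the genes most like the members, gave -1.36 at ZT14 and 0.041 at ZT2, with signals of at most 18.1. Its ADX arrays were Absent at both times, so the ZT14 value is a lower bound on the size, and at ZT2 the brighter array was the Absent one and no fold is given. Ass1 gave 1.26 at ZT14 and -1.47 at ZT2, where its sham array had a Marginal call. Each direction rests on 1 array per group, and the difference between the times was not tested.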

How the results depend on the processing

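Of the 5 genes, no call and no direction of a call changed under quantile normalization, unscaled signals, a floor of 1 unit or a floor at the median signal (14.2 units). Averaging both probe sets of Zbtb16 took its ZT14 difference between operations to -0.92, short of 2-fold. Counts of called probe sets, which serve here as background, depended on the settings. For ADX against sham at ZT14 (147 higher, 97 lower) they were 36 and 33 with the floor at the median signal, 688 and 468 with no detection filter, 31 and 31 with both arrays Present, and 480 and 384 at 1.5-fold. At ZT2 (108 and 52) they were 20 and 14, 517 and 282, 25 and 15, and 409 and 237 in the same order, and 68 and 80 under quantile normalization and 69 and 87 with unscaled signals. For ZT14 against ZT2 in ADX (177 and 150) they were 76 and 79, 705 and 475, 80 and 64, and 533 and 500, and in sham (211 and 156) they were 105 and 79, 727 and 393, 109 and 73, and 588 and 522. Stricter detection or a higher floor leaves out dim probe sets by construction. List medians moved by less than 1.5-fold under all alternatives run. With the floor at the median signal, 6 of 56 list counts changed by over 1.5 times, as did 1 under quantile normalization and 3 with unscaled signals. No paired analysis was possible because each group has 1 array and the labels give no replicate numbers, and leaving out an array would leave its group empty. Dim signals limit depth here: 4 of the 6 genes most like the members had at least 1 Absent call.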
